A study of Mus musculus with 30 samples.

Results

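The subunits of the mitochondrial respiratory chain and of ATP synthase were followed through myogenic and osteogenic differentiation of mouse C2C12 cells. The members were the genes whose symbol in the array's platform table starts with Ndufa, Ndufb, Ndufc, Ndufs, Ndufv, Uqcr, Cox4, Cox5, Cox6, Cox7, Cox8 or Atp5, together with Sdha, Sdhb, Sdhc, Sdhd and Cyc1, and without the Ndufaf assembly factors. This gave 83 genes of the 18194 genes with a probe set of their own, carried by 170 of the 45101 probe sets, and each gene was read from the probe set that was brightest on average over the 30 arrays. By complex, 36 members belonged to complex I, 4 to complex II, 9 to complex III, 17 to complex IV and 17 to complex V.

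Messenger RNA was measured on Affymetrix Mouse Genome arrays in 10 groups of 3 arrays. C2C12 is a line of mouse myoblasts, the proliferating precursors of muscle fibres, which fuse into myotubes in low-serum medium and turn to the osteoblast lineage when bone morphogenetic protein 2 (BMP2) is added. C2C12-pMirn378 is a stably transduced line that overexpresses the microRNA miR-378 from a lentiviral vector, and C2C12-pMirn0 is its control, carrying the parent vector. The series' design text lists the vectors in the reverse order, while the names of the lines and the study's own account of them give the order used here, and every difference between the lines takes its direction from it. All groups thus carried a lentiviral vector, and each line was 1 transduced population, so the replicates are repeated cultures of that population and a difference between the lines cannot be told apart from a difference between these 2 populations. Each line was harvested undifferentiated (d0) and after 3 and 6 days (d3, d6) without BMP2 (untreated, the myogenic condition) or with 300 ng/ml BMP2 (the osteogenic condition).

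Respiratory complexes I to IV pass electrons from NADH and succinate to oxygen. Complexes I, III and IV pump protons out of the mitochondrial matrix, and complex V, the ATP synthase, lets the protons back in to make ATP. Complex I takes electrons from NADH, complex II from succinate, complex III passes them to cytochrome c, and complex IV (cytochrome c oxidase) hands them to oxygen. Skeletal muscle is rich in these complexes, and 3 small subunits of complex IV have separate genes for heart and skeletal muscle, Cox6a2, Cox7a1 and Cox8b, beside the widely expressed Cox6a1, Cox7a2 and Cox8a. Part of complexes I, III, IV and V is encoded by mitochondrial DNA, and nearly all of that part lies outside this set of nuclear genes.

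The regions before the start of 5 of these isoform genes are shown because the muscle isoforms gave the largest changes of all members. The RefSeq promoter table used here held an entry for 67 of the 83 members, Cox6a2 not among them. Each sequence is the 250 bases before the RefSeq gene start in GRCm38.p6, 5′ to 3′ on the strand of the gene, and capitals mark matches to the motifs listed after the sequences.
Cox8b (chr7:140900447-140900696, minus strand): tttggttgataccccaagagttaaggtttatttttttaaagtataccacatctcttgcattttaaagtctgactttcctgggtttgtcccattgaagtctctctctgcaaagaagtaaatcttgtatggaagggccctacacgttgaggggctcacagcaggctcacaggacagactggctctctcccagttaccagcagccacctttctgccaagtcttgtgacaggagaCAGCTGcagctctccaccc
Cox7a1 (chr7:30183921-30184170, plus strand): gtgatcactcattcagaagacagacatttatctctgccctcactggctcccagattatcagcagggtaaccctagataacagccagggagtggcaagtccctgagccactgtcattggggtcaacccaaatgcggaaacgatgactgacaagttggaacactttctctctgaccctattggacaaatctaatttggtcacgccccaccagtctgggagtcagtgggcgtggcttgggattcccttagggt
Cox8a (chr19:7217617-7217866, minus strand): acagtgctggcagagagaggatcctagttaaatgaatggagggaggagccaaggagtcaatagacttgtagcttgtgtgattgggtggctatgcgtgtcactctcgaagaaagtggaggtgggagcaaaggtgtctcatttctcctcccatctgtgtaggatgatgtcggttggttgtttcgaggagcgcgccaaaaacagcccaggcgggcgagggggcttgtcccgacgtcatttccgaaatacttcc
Cox7a2 (chr9:79759854-79760103, minus strand): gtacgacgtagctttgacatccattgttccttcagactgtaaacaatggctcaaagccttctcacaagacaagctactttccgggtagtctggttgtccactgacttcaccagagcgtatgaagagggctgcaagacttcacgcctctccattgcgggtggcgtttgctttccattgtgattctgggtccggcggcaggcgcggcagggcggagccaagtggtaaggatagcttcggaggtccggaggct
Cox6a1 (chr5:115348959-115349208, minus strand): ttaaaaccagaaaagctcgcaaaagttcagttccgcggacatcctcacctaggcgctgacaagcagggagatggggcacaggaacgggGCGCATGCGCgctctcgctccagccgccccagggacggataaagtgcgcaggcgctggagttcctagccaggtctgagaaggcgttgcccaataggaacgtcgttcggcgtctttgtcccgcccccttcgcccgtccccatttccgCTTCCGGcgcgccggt

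In all, 7 motifs were searched on both strands of the 250 bases before the start. The muscle E-box CAGCTG was in the Cox8b region, beginning 19 bases before the start, and in 6 of the 67 members (8.96%) against 14.7% of 27025 genes. The letters CCGGAAG, the core that ETS factors such as GABP read, were in 12 of 67 members (17.9%) against 7.83% of all genes, and GCGCATGCG, read by the respiratory factor NRF1, was in 5 (7.46%) against 1.64%. The Cox6a1 region held both, with CCGGAAG on the other strand and GCGCATGCG on each strand in overlapping places. AAGGTCA, the core site of the ERR receptors, was in 7.46% of members against 4.7%, AAGATGGCG (YY1) in 1.49% against 0.71%, TATAAA in 10.4% against 14.3%, and the MEF2 motif in none of the members against 3.42%. Neither the Cox7a1, the Cox7a2 nor the Cox8a region held any of these letters. These matches describe the letters of the windows, and binding was not measured here.

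Signal was high and reproducible for most members. The mean intensity over all arrays was at least 1000 for 74 of the 83, with a median of 6545 and a highest mean of 22118, while the median of all values on the arrays was 76.5. Among those 74 genes the SD within a group was typically 4.11% of the mean. At the low end, 5 members stayed under the array median in every group: Cox4i2, the hypoxia-linked isoform of Cox4i1; Cox6b2 and Cox7b2, known from testis; Ndufa4l2; and Ndufb4. Of the chosen probe sets, 16 are of a kind that can take up signal from related genes, and 4 of those genes have no other. Cox7c was read from a weak probe set with a mean of 178. No level is compared here between probe sets, since brightness depends on the probe as well as on the RNA.

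The rule for calling a change asked for an adjusted p below 0.005 together with a log2 ratio beyond 0.6 in either direction, where for differentiation the p was that of d6 over d0 and the ratio was the mean of d3 and d6 over d0. Most changes of respiratory subunits were smaller than this, so the 74 bright members were also counted at an adjusted p under 0.005 and any size, against the 4493 genes with a mean of at least 1000. The arrays measure RNA from whole cultures, in which fewer cells of a type and less RNA per cell cannot be told apart.

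The muscle isoforms of complex IV were low at d0 and rose in the untreated cultures. Cox6a2 read 166, 154 and 198 on the 3 control arrays at d0, then 8675, 9032 and 9000 at d3 and 8796, 7089 and 6545 at d6. The rise was 51.8-fold at d3 and 43.2-fold at d6 (log2 5.70 and 5.43, SE 0.17, adjusted p = 3.89e-17 and 8.75e-17), with no overlap of arrays. C2C12-pMirn378 cells read 164, 135 and 153 at d0, 5588, 7302 and 6323 at d3, and 4763, 5599 and 3552 at d6. There the rise was 42.3-fold at d3 and 30.3-fold at d6. The level at d6 was not distinguishable from that at d3 in either line (adjusted p = 0.422 and 0.0936).

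Cox8b was higher at d6 than at d3 on every array of both lines when untreated, although the step between the days did not pass the test (log2 0.97 and 0.71, adjusted p = 0.32 and 0.548). In control cells it read 37.0, 10.6 and 69.0 at d0, 2816, 2708 and 3033 at d3, and 6016, 5512 and 5254 at d6. In C2C12-pMirn378 cells the values were 29.1, 8.28 and 6.97 at d0, 2830, 2833 and 2790 at d3, and 4850, 4544 and 4485 at d6. The d0 values lie under the array median and set only a bound, so against that median Cox8b was at least 37.3-fold higher at d3 and at least 73.0-fold higher at d6 in control cells, and at least 36.8-fold and 60.5-fold higher in C2C12-pMirn378 cells. All 4 rises passed the test (adjusted p = 8.13e-10, 7.64e-11, 4.00e-11 and 8.52e-12).

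Cox7a1 also rose in untreated cells of both lines. Its control values at d0 lay close to the array median, so the size of its rise is not ranked against the other muscle isoforms. Control arrays read 95.8, 75.7 and 81.2 at d0, 165, 163 and 202 at d3, and 578, 575 and 505 at d6, a log2 ratio of 1.07 at d3 and 2.72 at d6 (SE 0.18). Its step from d3 to d6 was called in control cells (log2 1.65, adjusted p = 1.42e-06). In C2C12-pMirn378 cells the arrays read 106, 101 and 115, then 261, 231 and 260, then 384, 413 and 415 (log2 1.23 and 1.92 over d0), and the step from d3 to d6 was 0.69 (adjusted p = 0.016).

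With BMP2 all 3 muscle isoforms were lower than in untreated cells of the same day. Cox8b stayed under the array median on all 12 arrays with BMP2, between 9.89 and 59.1, so its level there was at least 73.0-fold under the untreated level at d6 in control cells and at least 60.5-fold in C2C12-pMirn378 cells. Cox7a1 lay under the array median on all control arrays with BMP2, with 46.9, 41.5 and 61.8 at d3 and 57.8, 50.6 and 45.5 at d6 (log2 −0.76 and −0.71 against d0, adjusted p = 0.0014 and 0.00258). In C2C12-pMirn378 cells it read 53.8, 86.8 and 85.3 at d3 and 56.0, 49.6 and 76.8 at d6 (log2 −0.54 and −0.84, adjusted p = 0.0195 and 0.000509). These differences from d0 lie close to or under the array median, which leaves their size unset, and rest on single arrays: in control cells the call was lost when d0 replicate 1 or 3 or d6 BMP2 replicate 2 or 3 was left out, and in C2C12-pMirn378 cells without d3 BMP2 replicate 1 or d6 BMP2 replicate 2. Against untreated cells of the same day Cox7a1 was at least 2.30-fold lower at d3 and at least 7.21-fold lower at d6 in control cells, counted from the array median. In C2C12-pMirn378 cells, where 1 of 3 arrays at d3 and 2 of 3 at d6 lay under that median, it was 3.40-fold and 6.76-fold lower.

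Cox6a2 rose over d0 with BMP2 as well, in control cells on both days and in C2C12-pMirn378 cells at d6, to a lower level than without it. Control arrays with BMP2 read 1022, 996 and 979 at d3 and 2059, 2176 and 2011 at d6, which is 5.81-fold and 12.1-fold over d0. Cells of C2C12-pMirn378 read 270, 209 and 167 at d3 and 843, 1052 and 767 at d6. The d3 value was 1.41-fold over d0 and did not pass the threshold (adjusted p = 0.0256), and the d6 value was 5.85-fold over d0 (adjusted p = 2.58e-11). With BMP2 the level rose from d3 to d6 in both lines (log2 1.06 and 2.06, adjusted p = 0.000167 and 6.18e-09). Compared with untreated cells, BMP2 left Cox6a2 8.91-fold lower at d3 and 3.56-fold lower at d6 in control cells, and 30.1-fold and 5.19-fold lower in C2C12-pMirn378 cells. A second Cox6a2 probe set gave the same directions (log2 6.72 at d6 untreated over d0 and −2.17 for BMP2 over untreated at d6 in control cells).

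**Figure D1:**
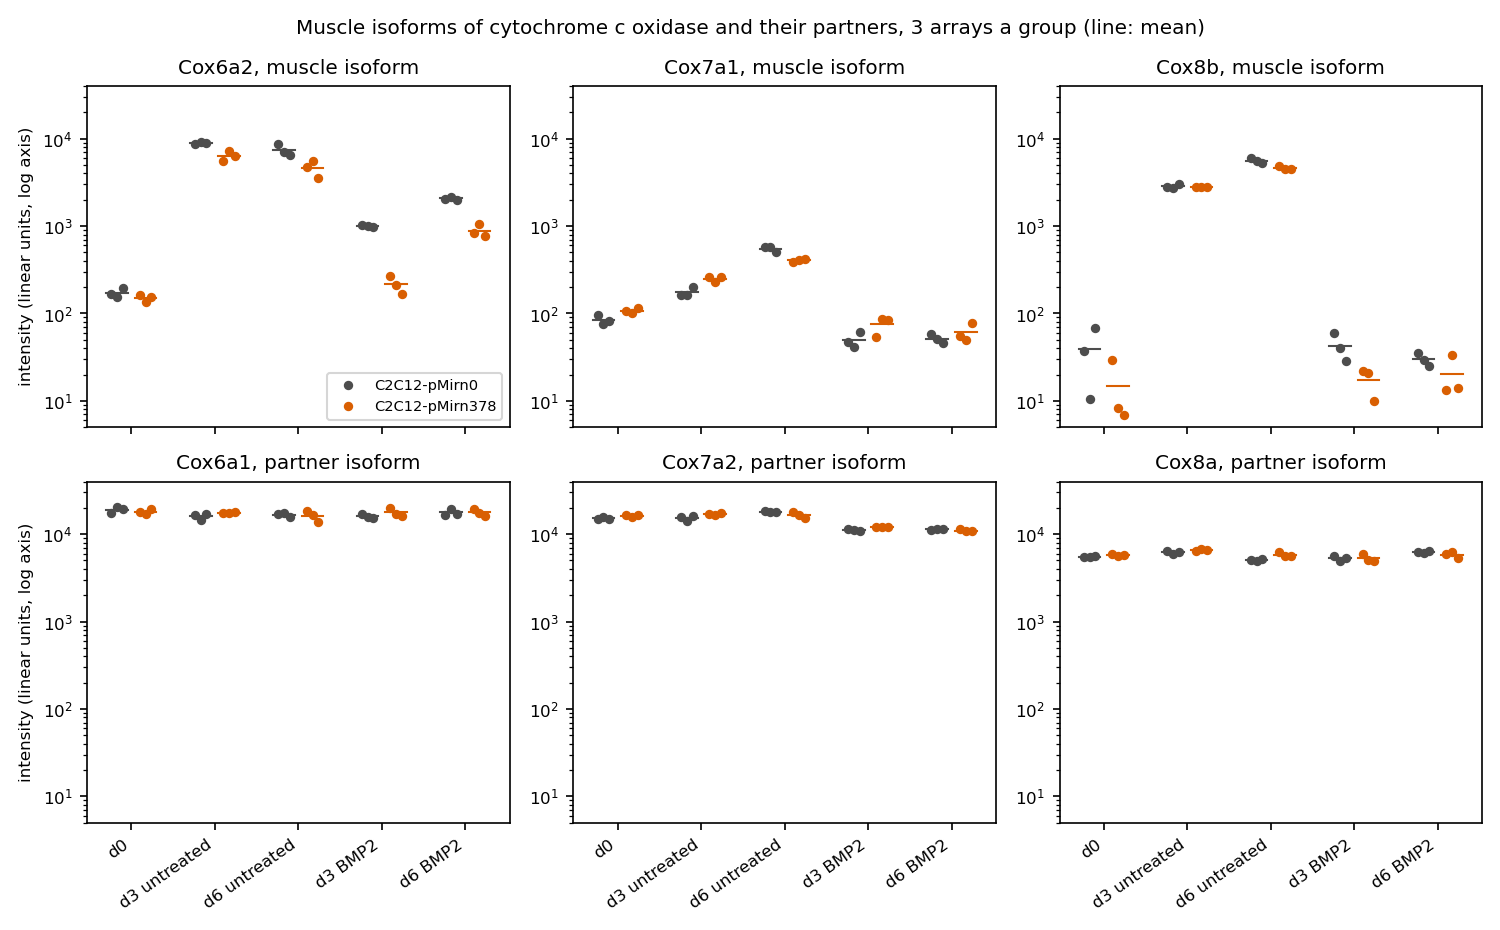
Intensity (log axis, linear units) of the muscle isoforms Cox6a2, Cox7a1 and Cox8b and of their partners Cox6a1, Cox7a2 and Cox8a on each of 3 arrays per group, with the group mean as a line and the lines of cells in 2 colours. Cox6a2 reached 8675 to 9032 in untreated control cells at d3 and 979 to 1022 with BMP2, while Cox8b stayed under 76.5 in all cultures with BMP2.

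Of the widely expressed partners, Cox6a1 and Cox8a varied less between groups than Cox7a2. Group means of Cox6a1 lay between 15992 and 18989, of Cox7a2 between 10966 and 18042, and of Cox8a between 5070 and 6624. Within the same array, the log2 difference between Cox6a2 and Cox6a1 shifted from d0 to d6 by 5.62 in untreated and 3.70 in BMP2-treated control cells, and by 5.09 and 2.57 in C2C12-pMirn378 cells (exact two-sided permutation p = 0.1 for each, the smallest that 3 against 3 arrays can give). Cox7a1 against Cox7a2 shifted by 2.47 and 1.88 in untreated cells of the lines (exact p = 0.1 for both). Cox8b against Cox8a shifted by at least 6.32 and 5.91 in untreated cells, with Cox8b at d0 set to the array median (exact p = 0.1 for both on the measured values). Among the partners, Cox7a2 was lower with BMP2 than without it in all 4 comparisons (log2 −0.47 to −0.67) and Cox6a1 passed the test in none of them (0.01 to 0.14). A second, dimmer Cox6a1 probe set gave 0.44 for BMP2 over untreated control cells at d6.

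In untreated control cells most of the bright subunits rose by modest amounts. Between d0 and d6, 49 of the 74 bright members (66.2%) were higher at any size and 3 (4.05%) lower, against 33.3% higher and 30.8% lower among all bright genes. With only the d0 and untreated arrays of that line in the fit, 28 were higher and 0 lower. Other genes were not counted in such narrower fits, so the shares above are not their background. By the called rule, 14 of 83 (16.9%) rose and none fell, against 11.5% and 11.7% of all genes. By limma at an unadjusted p under 0.05, 6 members fell, beside 4669 of all 18194 genes. The median log2 ratio of the 83 at d6 was 0.39, beside −0.07 for all genes, and it was 0.38 without the 3 muscle isoforms. On 62 of the 83 members the d0 and d6 arrays did not overlap, in either direction. With BMP2 this held for 56 members in the same line. The same was not counted over all genes, so these counts have no background. Untreated C2C12-pMirn378 cells had 39 of 74 (52.7%) higher and 2 (2.7%) lower, against 32.6% and 31.2% of bright genes, and 18 and 0 with only the compared groups in the fit. There 9 members (10.8%) were called higher and none lower, against 12.8% and 11% of all genes, with a median of 0.30 beside 0.13. By limma at an unadjusted p under 0.05, 7 were lower, beside 4194 of all 18194 genes. The share called higher was above that of all genes in control cells and below it in C2C12-pMirn378 cells. Among the 74 bright members 13 and 8 were called higher in the lines and 0 lower. Of the 4493 bright genes 840 and 861 were called higher and 777 and 757 lower. Against bright genes the share called higher was thus not raised in either line, and the share called lower was below it. All 9 genes called in C2C12-pMirn378 cells were also called in control cells: Cox6a2, Cox7a1, Cox8b, Ndufa13, Ndufa3, Ndufa6, Ndufs3, Ndufs4 and Ndufv3.

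Complex I carried most of the rise. At any size, 27 of its 36 members were higher at d6 in untreated control cells and none lower, with a median log2 ratio of 0.50; in C2C12-pMirn378 cells 24 were higher, with a median of 0.38. Ndufv3, a small subunit of the NADH-oxidising arm, read 3549, 4078 and 3935 at d0 and 8355, 8543 and 7828 at d6 in control cells (log2 1.10, SE 0.07, adjusted p = 2.16e-11). Its d6 arrays in C2C12-pMirn378 cells, 7880, 7592 and 7157, were likewise all above those at d0, 3622, 4189 and 3873 (log2 0.96). Ndufa13, also known as the cell-death regulator GRIM-19, rose by 1.03 and 0.91 on the log2 scale, read from its only probe set, which can take up related signal. Ndufs4, an accessory subunit needed for a fully assembled complex, read 2418, 2469 and 2451 at d0 and 4673, 4411 and 4195 at d6 in control cells (log2 0.85, adjusted p = 3.06e-10). Of the 6 core subunits among the members, which form its electron-transfer core, 5 rose in each line: Ndufs1 (0.73 and 0.55), Ndufs3 (0.75 and 0.53), Ndufs7 (0.54 and 0.31), Ndufv1 (0.78 and 0.55) and Ndufv2 (0.36 and 0.39). For the last, Ndufs8, the ratios were 0.37 and 0.26 (adjusted p = 0.0137 and 0.0905). Ndufa8 (−0.04), Ndufc2 (0.04) and Ndufab1 (0.12), the mitochondrial acyl carrier, did not pass the test in control cells.

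The other complexes were less uniform. In complex II, which also serves the citric acid cycle, the flavoprotein Sdha rose by 0.34 in control and 0.41 in C2C12-pMirn378 cells, while Sdhb (0.15), Sdhc (−0.10) and Sdhd (0.09) did not pass in control cells. Complex III was split: 6 of 9 members rose and 2 fell in control cells. Uqcr11, a small subunit, rose from 6625, 6505 and 6249 to 10885, 10548 and 10236 (log2 0.71, adjusted p = 5.75e-09), and the core protein Uqcrc2 and the Rieske iron-sulphur protein Uqcrfs1 rose by 0.53 and 0.35. Cytochrome c1, Cyc1, which passes electrons to cytochrome c, went the other way, from 7726, 8737 and 9069 at d0 to 6415, 7090 and 6163 at d6 (log2 −0.38, SE 0.08, adjusted p = 0.000377). The core protein Uqcrc1 fell by 0.36 on the log2 scale in control cells and by 0.42 in C2C12-pMirn378 cells, and Cyc1 fell by 0.44 there. Cyc1 and Uqcrc1 were thus lower in both lines while 2 other core genes of the same complex were higher. The called rise of Uqcrq rested on a probe set that can take up related signal, and its other 3 probe sets, which do not carry that risk and are dim, include 1 that gave −0.04; the mean of all 4 was −0.19.

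In complex IV, 9 of 17 members were higher in control cells, and without the muscle isoforms these were Cox4i1 (0.32), Cox5b (0.47), Cox6b1 (0.42), Cox6c (0.37), Cox7a2 (0.25) and Cox7a2l (0.65), the last known for joining respiratory complexes into supercomplexes. Cox5a (−0.22), Cox6a1 (−0.18), Cox7c (−0.35), Cox8a (−0.13) and Cox8c (0.06) did not pass. In complex V, 7 of 17 were higher and 1 lower. Atp5md, the small membrane subunit DAPIT, read 7654, 4745 and 5147 at d0 and 11839, 11895 and 11768 at d6 (log2 1.05, SE 0.20, adjusted p = 0.000163). In C2C12-pMirn378 cells its d0 arrays were 10023, 6557 and 6657 and the d6 arrays 9711, 10194 and 10698, which overlap (log2 0.43, adjusted p = 0.103). Among the 5 subunits of the catalytic F1 head, Atp5e rose (0.67), Atp5a1 fell (−0.34, adjusted p = 0.00054), and Atp5b (0.02), Atp5c1 (0.01) and Atp5d (0.07) did not pass. Atp5e was read from its only probe set, which can take up related signal. The c-ring genes Atp5g1 (0.12), Atp5g2 (0.16) and Atp5g3 (−0.08), which code for the same mature protein, did not pass either.

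**Figure D2:**
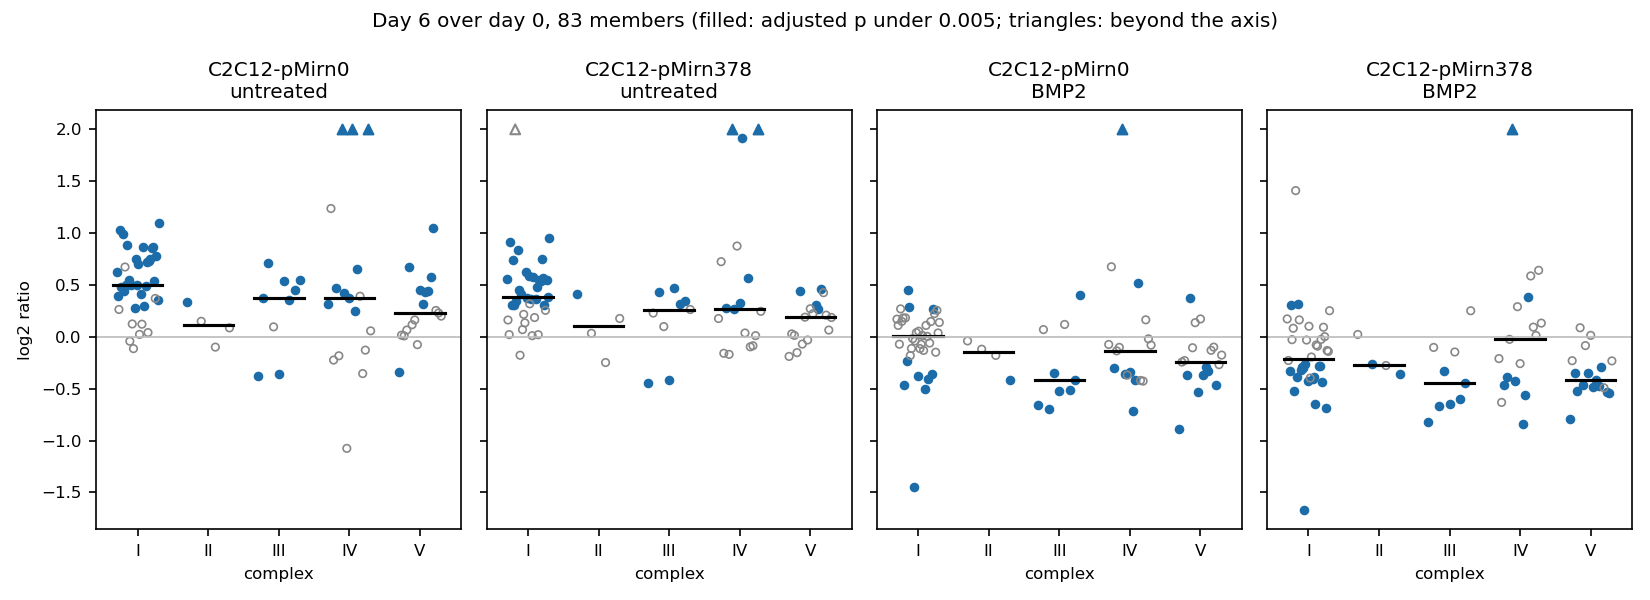
Log2 ratio of d6 over d0 for each of the 83 members by complex, in the 2 lines with and without BMP2; filled points have an adjusted p under 0.005, bars are medians, and triangles lie beyond the axis. The complex I median is 0.50 in untreated control cells and 0.01 with BMP2.

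With BMP2 this rise was not seen, and part of the genes fell below d0. In control cells the d6 value of 7 of 74 bright members (9.46%) lay above d0 and that of 24 (32.4%) below it, against 30.8% higher and 29.6% lower among bright genes; with only the compared groups in the fit, 3 lay above and 11 below. By the called rule 1 member (1.2%) rose, Cox6a2, and 5 (6.02%) fell, Atp5a1, Cox7a1, Cyc1, Ndufb1 and Uqcr11, against 11.6% and 10.2% of all genes. Both shares were below those of all genes. Among the 74 bright members 1 was called higher and 3 lower, against 836 and 706 of the 4493 bright genes. C2C12-pMirn378 cells with BMP2 had 4 (5.41%) higher and 38 (51.4%) lower, against 32.4% and 31.9% of bright genes, and 1 and 17 with only the compared groups. The counts with only the compared groups have no background from other genes. There Cox6a2 (1.2%) was called higher and 7 (8.43%) lower, against 13.2% and 10.7% of all genes: Atp5a1, Atp5g1, Cox7a1, Cyc1, Ndufb1, Ndufb8 and Ndufs8. Medians of the 83 were −0.11 and −0.28 in the lines, beside −0.01 and 0.06 for all genes. Called lower in both lines were 4 members, Atp5a1, Cox7a1, Cyc1 and Ndufb1.

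Complex III and complex V had the lowest medians with BMP2. They stood at −0.41 and −0.24 in control cells and at −0.44 and −0.41 in C2C12-pMirn378 cells, while complex I stood at 0.01 and −0.21. Atp5a1, the alpha subunit of the F1 head, read 8873, 9278 and 9464 at d0 and 4722, 5216 and 4947 at d6 with BMP2 in control cells (log2 −0.89, SE 0.07, adjusted p = 7.97e-10). In C2C12-pMirn378 cells it went from 7972, 8197 and 8101 to 4907, 4694 and 4442 (log2 −0.79). Both sets of arrays lie far apart. Ndufb1, a small membrane subunit of complex I, went from 420, 357 and 295 to 120, 112 and 161 in control cells (log2 −1.45, SE 0.21) and from 345, 364 and 355 to 124, 99.9 and 112 in C2C12-pMirn378 cells (log2 −1.67), and was near d0 in untreated cells (−0.11 and 0.22, neither passing the test). In control cells with BMP2, 7 members were higher at any size: Atp5e (0.37), Cox6a2 (3.60), Cox7a2l (0.52), Ndufa6 (0.45), Ndufa7 (0.29), Ndufs5 (0.27) and Uqcrq (0.41). All 7 were also higher without BMP2, and these comparisons share the d0 arrays.

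**Figure D3:**
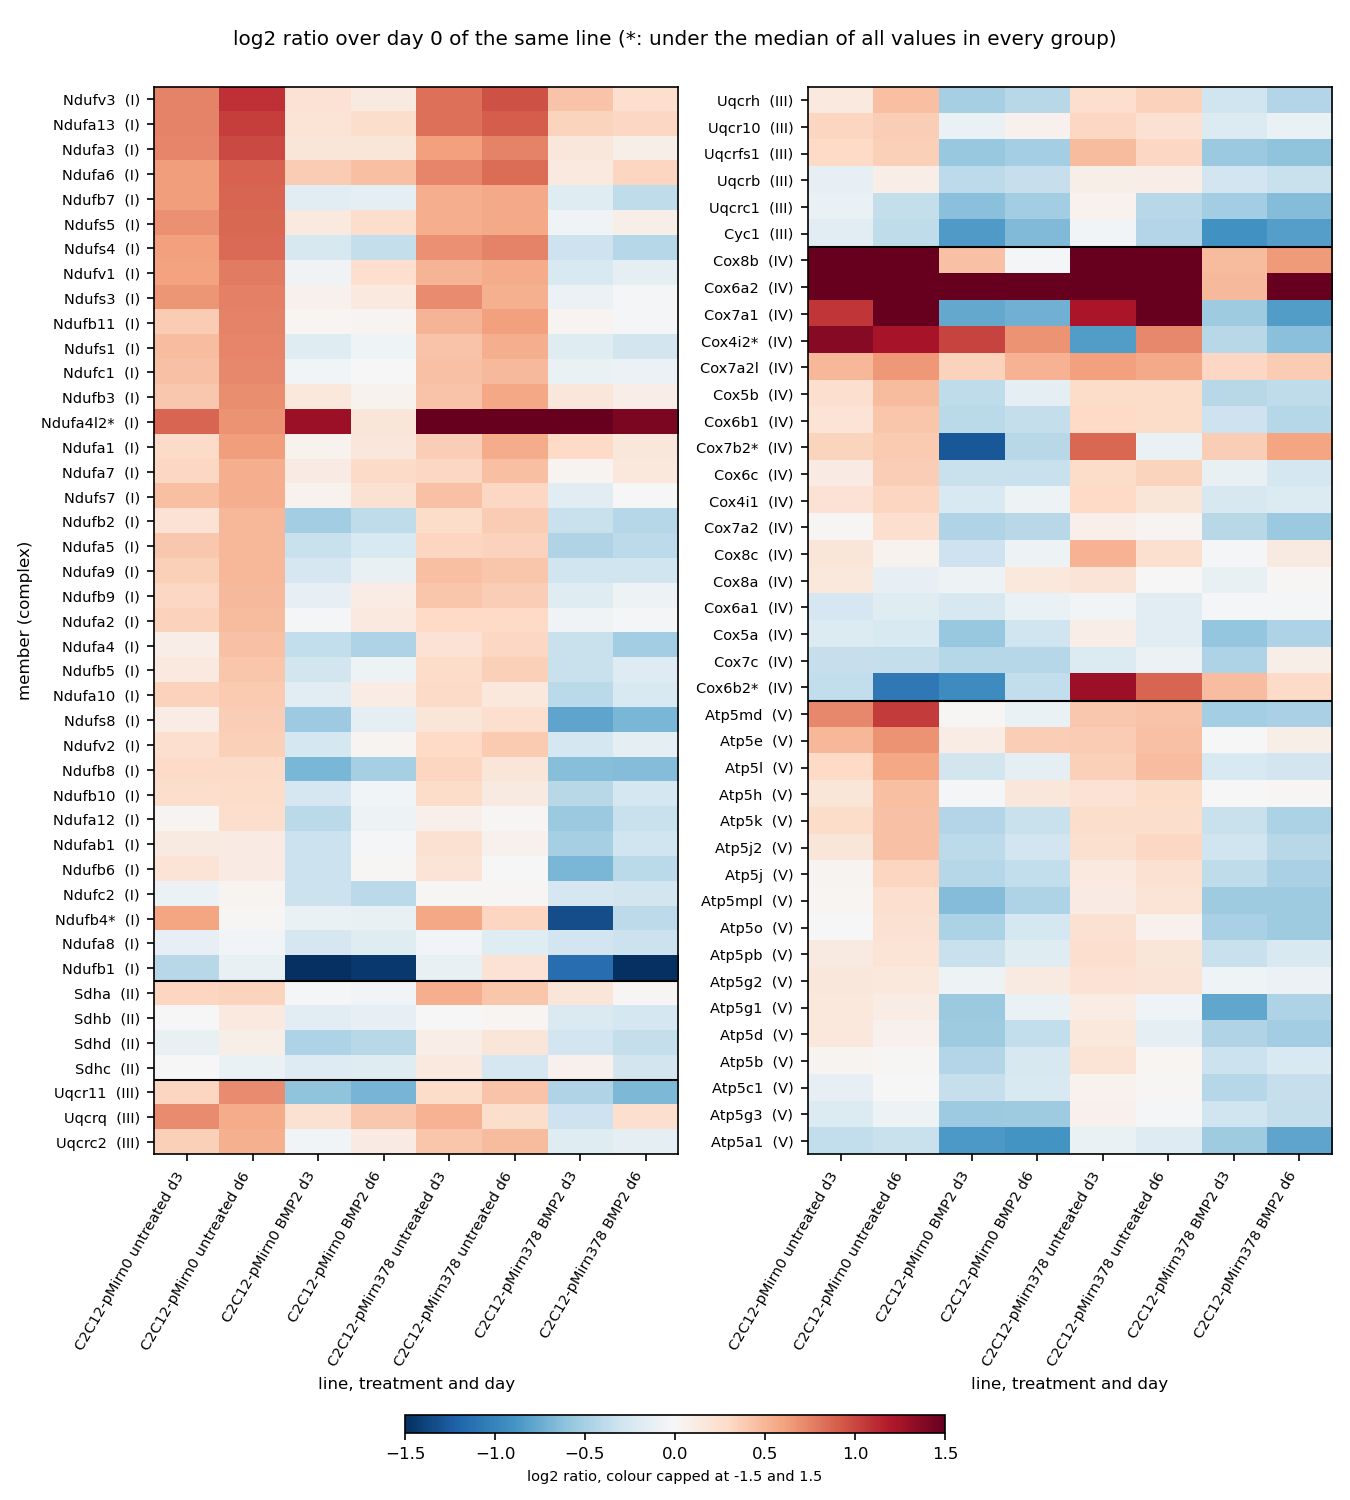
Colour map of the log2 ratio over d0 of the same line for all 83 members (rows, by complex) at d3 and d6 with and without BMP2 (columns); red is higher, blue lower, colour stops at 1.5 in either direction, and a star marks the members under 76.5 in every group. Most complex I rows are red in the untreated columns of both lines, and Cyc1, Uqcrc1 and Atp5a1 are blue at d6 in all 4 conditions, where Atp5a1 did not pass the test in untreated C2C12-pMirn378 cells (−0.19).

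Set against untreated cells of the same day, most of the subunits were lower with BMP2. At any size, 59 of 74 bright members (79.7%) were lower in control cells at d3 and 58 (78.4%) at d6, against 25.2% and 28.6% of bright genes. In C2C12-pMirn378 cells 69 (93.2%) and 63 (85.1%) were lower, against 30.6% and 27.6%. Cox8a was the 1 member (1.35%) higher at any size in control cells at d6, by 0.29, and in the other 3 comparisons none was. Of bright genes 28.6%, 30.8%, 31% and 30.3% were higher in the 4 comparisons. By limma at an unadjusted p under 0.05, 1 of the 83 members was higher in control cells at d6 and 0 in the others. Among all 18194 genes 4579, 4745, 4694 and 4446 were. That result for Cox8a (adjusted p = 0.00293) was lost when any 1 of its 6 arrays was left out, with only the compared groups in the fit, under scaling by the median of bright probe sets, and with the mean of all its probe sets. The called rule gave 24 members lower (28.9%) in control cells at d3, 32 (38.6%) at d6, 33 (39.8%) in C2C12-pMirn378 cells at d3 and 32 (38.6%) at d6, against 8.48%, 10.6%, 9.84% and 11.1% of all genes. No member was called higher in any of the 4, against 11.2%, 11%, 13.3% and 10.8% of all genes. Among the 74 bright members 22, 30, 31 and 30 were called lower, against 628, 754, 737 and 725 of the 4493 bright genes. Of the bright genes 737, 763, 856 and 745 were called higher. Arrays with and without BMP2 did not overlap, in either direction, on 76, 72, 77 and 76 of the 83 members. The same was not counted over all genes, so these counts have no background.

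Medians were −0.49, −0.49, −0.58 and −0.54 in the 4 comparisons, beside 0.05, 0.08, −0.03 and −0.03 for all genes, and without the 3 muscle isoforms they were −0.48, −0.46, −0.57 and −0.52. The comparisons share no arrays with each other. In all 4, 53 members were lower at any size: 29 of complex I, 2 of complex II, 5 of complex III, 8 of complex IV and 9 of complex V. Of these, 16 lay below −0.6 each time. Among the 74 bright members 51 and 14 did, against 17.4% and 9.7% of bright genes. When each group of arrays was fitted only with the group it was compared with, the counts at any size fell to 8, 28, 13 and 11 members lower. Bright genes as a whole were not counted in those fits, so these counts have no background. Another scaling of the arrays moved the medians to between −0.54 and −0.68, and quantile normalization to between −0.43 and −0.48 in the comparisons where the move exceeded the replicate spread, with no change of direction.

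All 6 core subunits of complex I were lower in each comparison, with medians of −0.63, −0.52, −0.67 and −0.62, and of its 30 other members 25, 25, 27 and 27 were. Ndufs4 gave one of the widest gaps among accessory subunits: control arrays read 4673, 4411 and 4195 without BMP2 at d6 and 1843, 1879 and 2020 with it (log2 −1.21, adjusted p = 8.93e-13). In C2C12-pMirn378 cells these were 4217, 4101 and 4006 against 1802, 1944 and 1703 (log2 −1.18). The d6 untreated and d6 BMP2 arrays of Ndufs4 lie on either side of those at d0. Ndufa4, counted here with complex I by its symbol although its protein is now placed in complex IV, was lower by −0.90 and −0.83 at d6. Ndufa8 was among the few complex I genes with small ratios (−0.13, −0.14, −0.25 and −0.14), and of these only the third passed the test.

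In complex II, Sdha (−0.33 to −0.39) and the membrane anchor Sdhd (−0.35 to −0.54) were lower in all 4 comparisons, none of the 4 genes reached −0.6, and Sdhc (−0.21 to −0.03) passed in none. Uqcr11 of complex III read 10885, 10548 and 10236 without BMP2 and 3938, 3942 and 4105 with it in control cells at d6 (log2 −1.40, SE 0.06, adjusted p = 5.57e-14). In C2C12-pMirn378 cells the ratio was −1.10, from 10850, 9599 and 9332 to 4686, 4665 and 4501. The Rieske protein Uqcrfs1 was lower by −0.86, −0.87, −1.03 and −0.91. Cyc1 and Uqcrc1 differed by day: at d3 the ratios were −0.69 and −0.53 in control cells and −0.86 and −0.58 in C2C12-pMirn378 cells, all passing, whereas at d6 Cyc1 gave −0.29 (adjusted p = 0.00521) and −0.38 (adjusted p = 0.000376) and Uqcrc1 −0.16 and −0.23, neither passing. Both transcripts were lower at d6 than at d0 in untreated cells of both lines. The difference between the days was not tested.

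In complex IV, Cox5b and Cox6b1, widely expressed subunits, lay below −0.6 in all 4 comparisons. Cox5b, whose probe set can take up related signal, read 17915, 17468 and 16421 without BMP2 and 11268, 11431 and 11351 with it in control cells at d6 (log2 −0.60, adjusted p = 7.65e-07). Its level with BMP2 was a little under the d0 arrays of 11980, 12829 and 12606 (log2 −0.14, adjusted p = 0.193). Cox7a2l, by contrast, passed in 1 of the 4 (−0.15, −0.13, −0.31 and −0.19, the third passing). In complex V the F1 subunits Atp5a1 (−0.43 to −0.60), Atp5d (−0.37 to −0.69) and Atp5e (−0.30 to −0.39) were lower each time, as were the membrane-sector and stalk genes Atp5j, Atp5j2, Atp5k, Atp5l, Atp5mpl and Atp5pb. Atp5b, the catalytic beta subunit, passed at d3 (−0.48 and −0.53) and not at d6 (−0.26 in both lines). Atp5g2 passed in none (−0.03 to −0.28). For Ndufb8, the largest ratios (−0.98 and −0.80 in control cells) come with a second, much dimmer probe set that moved the other way (0.90 at d6), and the mean of its probe sets gave 0.04 and 0.05.

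**Figure D4:**
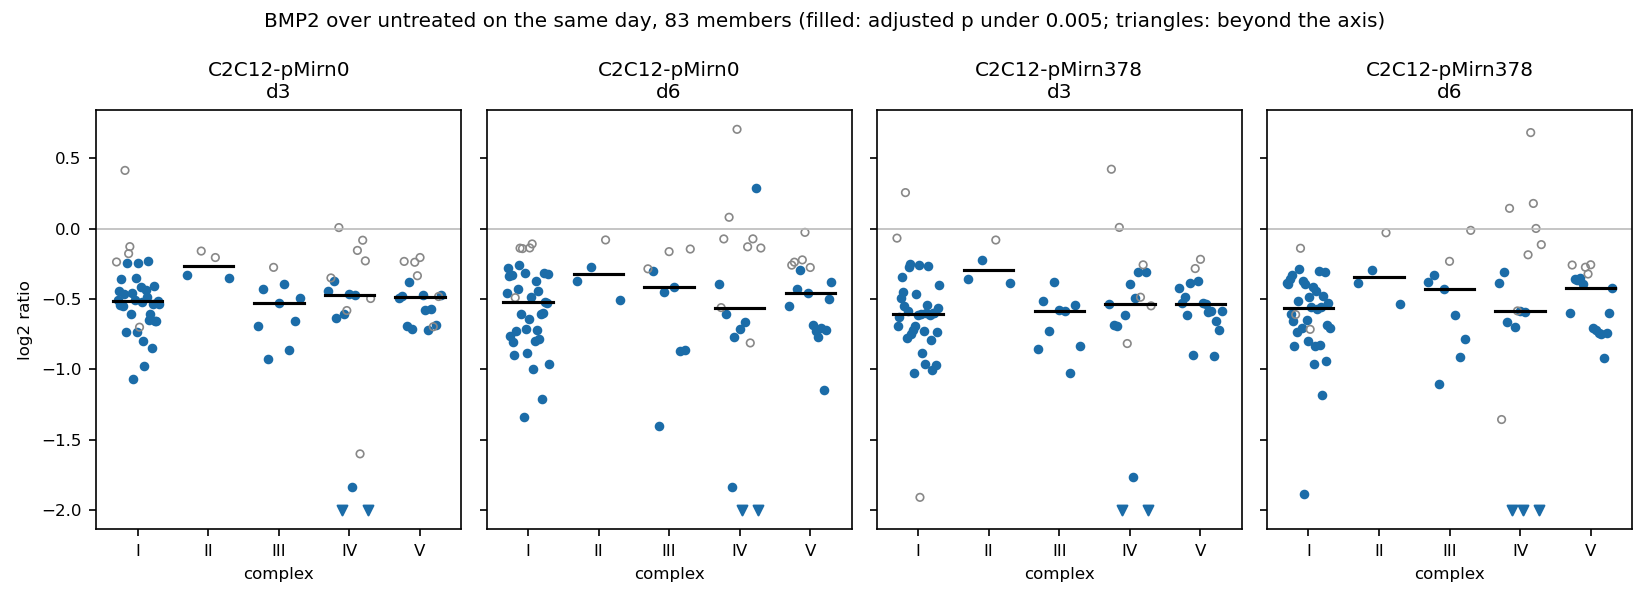
Log2 ratio of BMP2-treated over untreated cells of the same day for each of the 83 members by complex; filled points have an adjusted p under 0.005, bars are medians, and triangles lie beyond the axis. The median of every complex is below 0 in every panel, and complex II lies closest to 0 with medians of −0.27 to −0.34.

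Few of these genes passed the called rule between the lines. No member was called between the lines at d0, at d3 untreated or at d6 untreated, where 0.83%, 0.715% and 0.247% of all genes were; by limma at an unadjusted p under 0.05, 4 were higher and 3 lower at d0, 6 and 1 at d3, and 2 and 17 at d6. The fit with only the compared groups called none there either. With BMP2, 1 member was called at d3 and 1 at d6, against 4.36% and 2.86% of all genes, and both times it was Cox6a2; at an unadjusted p under 0.05, 13 were higher and 15 lower at d3 with BMP2, and 3 and 32 at d6. The medians of the 83 lay between −0.11 and 0.08 over the 5 comparisons. By limma at an unadjusted p under 0.05, 1050 of all 18194 genes were higher and 1859 lower at d0, and 1128 and 846 at d3 untreated. At d6 untreated they were 1329 and 783, at d3 with BMP2 2566 and 2481, and at d6 with BMP2 2160 and 2162. The share of members lower at d6 was thus above that of all genes, with and without BMP2. Below 0 lay 74 of 83 members at d6 untreated and 67 at d6 with BMP2, beside 8305 and 9584 of all genes. Among the 74 bright members 16 and 32 were lower and 1 and 2 higher by limma at an unadjusted p under 0.05. Of the 4493 bright genes 335 and 908 were lower and 298 and 902 higher. Below 0 lay 70 and 61 of the bright members, beside 2519 and 2338 of the bright genes.

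Cox6a2 was lower in C2C12-pMirn378 cells with BMP2, with 270, 209 and 167 against 1022, 996 and 979 at d3, a 4.72-fold difference (log2 −2.24, SE 0.17, adjusted p = 4.8e-09). At d6 it was 2.37-fold lower, 843, 1052 and 767 against 2059, 2176 and 2011 (log2 −1.24, adjusted p = 3.14e-05). No arrays of the lines overlap on either day. Without BMP2 the differences were −0.19 at d0, −0.48 at d3 and −0.70 at d6 (adjusted p = 0.66, 0.27 and 0.052). The line by BMP2 interaction, which asks whether BMP2 lowered the gene by a different factor in the lines, was −1.76 at d3 (SE 0.24, adjusted p = 9.03e-05) and −0.54 at d6 (adjusted p = 0.272). Cox6a2 was the 1 member called for the interaction at d3 and none was at d6, against 2.02% and 2.05% of all genes. By limma at an unadjusted p under 0.05, 1 member lay above and 10 below 0 at d3, and 3 and 8 at d6. Of all 18194 genes 1746 lay above and 1734 below at d3, and 1556 and 1870 at d6. When only the compared groups entered the fit, the adjusted p rose to 0.0122 and 0.0401 for the difference on the days and to 0.00992 for the interaction at d3, all above the threshold of 0.005.

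At any size, 4 further bright members differed at d3 with BMP2: Uqcr11 (0.34) and Ndufb2 (0.26) were higher in C2C12-pMirn378 cells, and Uqcrq (−0.35) and Ndufa6 (−0.26) lower. At d6 with BMP2, Ndufs8 (−0.59, adjusted p = 0.00171), Atp5g1 (−0.33), Uqcrc2 (−0.31) and Ndufab1 (−0.30) were lower. With Cox6a2 this made 2 higher and 3 lower of the 74 at d3, against 9.57% and 9.66% of bright genes, and 0 and 5 at d6, against 6.39% and 5.41%. Ndufs8, a core iron-sulphur subunit, read 4359, 4249 and 4762 in C2C12-pMirn378 cells and 7297, 6161 and 6699 in control cells. For the other muscle isoforms with BMP2, Cox7a1 gave 0.58 at d3 and 0.23 at d6 (adjusted p = 0.0365 and 0.578) from values near or under the array median, and Cox8b was under the array median in both lines.

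**Figure D5:**
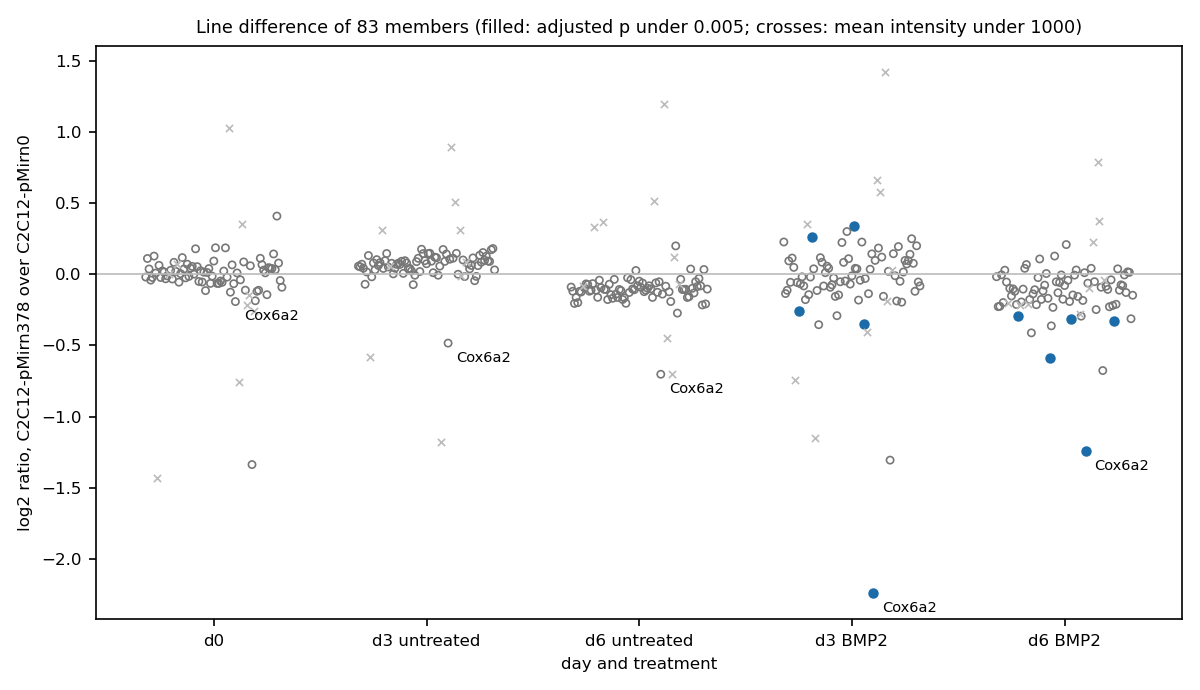
Log2 ratio of C2C12-pMirn378 over C2C12-pMirn0 for the 83 members at each day and treatment; filled points have an adjusted p under 0.005 and crosses are members with a mean under 1000. Cox6a2 lies at −2.24 at d3 and −1.24 at d6 with BMP2, the lowest point on both days.

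Markers of the cell types moved with these results. The summed intensity of 8 myogenic genes, all measured (Myod1, Myf5, Myog, Des, Cdh15, Ckm, Acta1 and Myh3), was 34284 to 36700 at d0, 72157 to 98154 in untreated cells and 12396 to 27317 with BMP2 over both lines. With BMP2 it was lower in C2C12-pMirn378 than in control cells, 20686 to 23287 against 24667 to 27317 at d3 and 12396 to 13891 against 20761 to 22365 at d6. For all lists here, measured means that a probe set carried the gene's symbol alone. Of 6 osteoblast markers this held for 4 (Alpl, Dlx5, Sp7 and Ibsp). Runx2 and Bglap, which the paper reports from the same arrays, had no such probe set and were left out. The sum of the 4 was 174 to 269 at d0 and in untreated cells. With BMP2 it was 2735 to 3595 in control cells and 6020 to 7705 in C2C12-pMirn378 cells. Ibsp stayed low throughout. The adipocyte sum (4 of 5 measured) was 90.9 to 283 without BMP2 and 1866 to 4586 with it, nearly all of it Fabp4, while Adipoq and Cidec stayed low. Sums of the endothelial (27.9 to 150), blood (at most 116) and brown fat and heart lists (33.7 to 155, with Ucp1, Myh6 and Nppa) were low on all arrays. The chondrocyte sum was 1184 to 1619 at d0, 436 to 575 in untreated cells and 927 to 1684 with BMP2 over both lines. The part of these shifts in the results for the respiratory subunits was not tested.

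Other lists of mitochondrial genes were read at any size against all genes, of which 17% were higher and 17.5% lower at d6 in untreated control cells. For BMP2 against untreated in the 4 comparisons, 12.3%, 14.9%, 14.7% and 15.2% of all genes were lower and 16.5%, 16.8%, 18.6% and 16.5% higher. Among genes with a mean of at least 1000 these shares were 25.2%, 28.6%, 30.6% and 27.6% lower and 28.6%, 30.8%, 31% and 30.3% higher. For untreated control cells at d6 they were 33.3% higher and 30.8% lower. The lists were not split by brightness. Of 43 assembly factors of the complexes, 41 were measured; 16 were higher and 6 lower at d6 in untreated control cells (median 0.23), and with BMP2 15, 12, 19 and 14 were lower than untreated in the 4 comparisons and 4, 5, 3 and 6 higher. Cox17, which carries copper to complex IV, rose by 0.62 and was lower by −0.81 with BMP2 at d6 in control cells, and the assembly factor Surf1 rose by 0.84. Of 12 electron carrier genes measured, mostly of coenzyme Q synthesis, 8, 4, 9 and 7 were lower with BMP2 and 0, 1, 0 and 0 higher. Cytochrome c itself, Cycs, fell by 0.42 on the log2 scale in untreated control cells, as did the adenine nucleotide carrier Slc25a5, by 0.54. Of the 76 mitochondrial ribosomal proteins, in untreated control cells 12 were higher and 20 lower (median −0.05), and with BMP2 32, 21, 46 and 29 were lower than untreated and 3, 15, 3 and 8 higher. Of the 11 measured genes that maintain and transcribe mitochondrial DNA, 2 were higher and 3 lower in untreated control cells. Of 26 names of genes encoded in mitochondrial DNA, only ND5 had a probe set of its own, with a log2 ratio of 0.55 at d6 in untreated control cells (adjusted p = 0.00176) and −0.33 for BMP2 against untreated, which did not pass.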

How the data were processed

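RNA of 30 cultures (10 groups of 3) was hybridised to Affymetrix Mouse Genome 430 2.0 arrays. The authors deposited 1 linear intensity per probe set and array. Their processing notes name R 2.4.1 and RMA, and their methods quantile normalization; the array medians in the table still ran from 68.0 to 82.7. RMA values lie on a compressed scale, so ratios of strong changes may be understated. Depth does not apply to arrays, whose number limits the precision: the SE of a log2 ratio was 0.07 for the median member. Probe sets were named from the platform table (34958 with 1 symbol, 932 with several, 9211 with none), and 10 probe sets that mix a member with another symbol were left out.

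All 30 arrays entered 1 limma fit (limma 3.58.1, R 4.3.3) on log2 intensity with 10 group means, moderated variance and Benjamini-Hochberg adjustment over all probe sets within a contrast. Single ratios within an array were tested by exact permutation (Python 3.11.15, scipy 1.17.1). The labels say nothing of separate animals or donors, and replicates are repeated cultures of 1 transduced line, so p-values measure the spread between cultures. No 2 arrays were identical. Replicate numbers are shared across groups, but same-numbered arrays deviated together (every pair over 0.1) in 1 comparison only, BMP2 against untreated C2C12-pMirn378 cells at d6 (r = 0.147, 0.141 and 0.172). The fit was tested on simulated data. The text names isoform families, core subunits, the members with the largest called changes, those called between the lines and those that moved against the majority; other members are named as examples, chosen after their values were seen. Members, lists and the any-size rule were chosen with earlier results of these data known. Alternatives covered normalization, scaling, an offset, dim or cross-reacting probe sets, the probe set per gene, the variance model, the arrays in the fit, the replicate block and leaving out each array.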

Additional observations from a re-analysis of the deposited data

Results flagged for a closer look

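The effect of BMP2 on Cox6a2 at d3 differed between the lines by the test of the difference itself. BMP2 lowered Cox6a2 from 8675, 9032 and 9000 to 1022, 996 and 979 in control cells (log2 −3.16) and from 5588, 7302 and 6323 to 270, 209 and 167 in C2C12-pMirn378 cells (log2 −4.91), and the interaction was −1.76 (SE 0.24, adjusted p = 9.03e-05 by limma). Leaving out each of the 12 arrays in turn gave −1.59 to −1.93, each past the threshold. With only the compared groups in the fit the adjusted p was 0.00992, above the threshold of 0.005. Beside this, at d3 with BMP2, the summed myogenic markers were 24667 to 27317 in control and 20686 to 23287 in C2C12-pMirn378 cells. Of the listed genes, Myog, Myf5 and Myh3 were lower in C2C12-pMirn378 cells by log2 −0.72, −0.95 and −1.06, while Ckm was higher by 0.78. The ratios of Myod1, Des, Cdh15 and Acta1 are not given here. The part of these markers in the result was not tested.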

How the results depend on the processing

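Of 411 results on single members, the trended robust variance model and the replicate block changed no call, and the filter on dim probe sets none of the 379 it could give. With only the compared groups in the fit, which leaves fewer arrays to estimate the spread, 62 lost their call and no member changed direction. The counts at any size then fell from 49 to 28 higher and from 3 to 0 lower for untreated control cells at d6, from 39 to 18 and from 2 to 0 for untreated C2C12-pMirn378 cells, from 7 to 3 higher and 24 to 11 lower for control cells with BMP2, and from 4 to 1 and 38 to 17 for C2C12-pMirn378 cells with BMP2. For BMP2 against untreated, members lower at any size were 8, 28, 13 and 11 (control d3 and d6, C2C12-pMirn378 d3 and d6), called lower were 9 in control cells at d3 and 14 and 13 in C2C12-pMirn378 cells, and 0 were higher in control cells at d6. The calls of Cox6a2 between the lines with BMP2 on both days, and that for the interaction at d3, fell to 0. Only members were counted in these narrower fits, so the counts have no background from other genes.

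Scaling by the median of bright probe sets raised the members called lower to 8 (from 5) and 11 (from 7) for BMP2 over d0 in control and C2C12-pMirn378 cells, and to 51 (from 33) for BMP2 against untreated C2C12-pMirn378 cells at d3. It gave medians of −0.59, −0.54 and −0.68 for control d3, control d6 and C2C12-pMirn378 d3, and 0 members higher at any size in control cells at d6. Quantile normalization gave −0.43, −0.44 and −0.48 for the same medians and 8 members higher (from 4) for C2C12-pMirn378 cells with BMP2 over d0. An offset of 16 gave a median of −0.45 for control d6 and a Cox8b to Cox8a shift of 7.30 (from 8.59 as measured, where d0 lies under the array median) in untreated C2C12-pMirn378 cells. The cause was not tested for any of these.

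The choice of probe set mattered for single genes. Without probe sets that can take up related signal, 1 member was called lower and 5 were lower at any size in untreated control cells at d6, and for BMP2 against untreated 1 member was called higher and 1 higher at any size in control cells at d3 and in C2C12-pMirn378 cells at d6, and 2 and 3 in control cells at d6 (among them Atp5c1, Cox8a and Ndufa12); Uqcrq turned to −0.0392 in untreated control cells and Ndufa12 to 0.28 in C2C12-pMirn378 cells at d3. With the mean of all probe sets, Uqcrq was −0.19, Ndufb8 was 0.0417, 0.0540 and 0.0872 with BMP2 (control d3 and d6, C2C12-pMirn378 d3), the Atp5g1 to Atp5g3 shift in C2C12-pMirn378 cells with BMP2 at d6 was 0.18, 4 members were called lower for C2C12-pMirn378 cells with BMP2 over d0, 2 were higher at any size for BMP2 in control cells at d6, and the Cox6a2 to Cox6a1 shifts were 6.34, 4.07, 5.83 and 2.97.

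Leaving out 1 array at a time reversed 0 single members, with 58 calls lost and 29 gained over all such fits. The count called lower in untreated control cells was 0 to 1 (1, Cox6b2, without d6 replicate 3) and their median 0.36 to 0.44 (0.44 without d0 replicate 2). For BMP2 in control cells at d6, 0 to 0 members were higher at any size, and the median was −0.50 to −0.43 (−0.43 without untreated replicate 1). Between the lines with BMP2, 0 to 1 members were called higher at d3 (1 without C2C12-pMirn378 replicate 1) and 1 to 2 lower at d6 (2 without control replicate 2 or C2C12-pMirn378 replicate 3). Under the replicate block the Cox6a2 line differences had adjusted p = 1.25e-08 at d3 and 3.81e-05 at d6; same-numbered arrays did not pair in 12 of 13 comparisons, and in 4 of 13 every array correlated best with its own number.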
